A study of Mus musculus with 6 samples.

Results

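The 10 genes described here encode 5 glutathione peroxidases (Gpx1, Gpx3, Gpx4, Gpx7 and Gpx8), the subunits of glutamate-cysteine ligase (Gclc and Gclm), glutathione reductase (Gsr) and a pair of glutathione S-transferases (Gstm1 and Gsta4). They were chosen by symbol from the 23420 rows of a table of RNA-seq counts from mouse pancreatic islets, the clusters of hormone-secreting cells that include the insulin-producing beta cells. All 10 were found and all 10 passed the filter on low counts. The overfed mice, labelled OIO for overfeeding-induced obesity, were C57BL/6J mice that received the liquid diet Ensure through a 9-day gastric infusion that supplied between 13 and 18.5 kcal daily. Control mice, also C57BL/6J, were infused with saline over the same 9 days. Each group had 3 libraries of polyadenylated RNA. Age and sex are not in the labels, and neither is whether the libraries stem from different animals. The tests therefore weigh differences against the scatter of these libraries, part of which may be technical.

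Glutathione is a small thiol that cells keep at high concentration as a reductant. Glutamate-cysteine ligase catalyses the limiting step of its synthesis, peroxidases spend it to reduce hydrogen peroxide and lipid hydroperoxides, glutathione reductase restores it from the oxidised form with NADPH, and transferases attach it to electrophiles. Beta cells of rodents are known for low levels of several enzymes that remove peroxide.

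In islets of overfed mice, Gpx1, the general peroxidase of cytosol and mitochondria, was 1.56-fold higher than in control islets (95% interval 1.42 to 1.72, n = 3 libraries each), and Gstm1, a mu class transferase, was at 0.703 of the control level (95% interval 0.629 to 0.787). The other 8 genes did not pass the test. Gpx2, a peroxidase of the gut epithelium that is not among the 10, rose 2.65-fold. Among 14903 genes tested, 7.37% were called in either direction, 4.54% as higher and 2.84% as lower in OIO islets, at a Benjamini-Hochberg adjusted p under 0.05 in edgeR's quasi-likelihood test. The count of 1 higher and 1 lower gene among 10 is to be read against these shares.

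The libraries held between 20968058 counts (OIO replicate 1) and 48178375 counts (OIO replicate 2). Levels are given as CPM, counts scaled to a common library size, with the trimmed mean of M-values (TMM) correcting for differences in library composition. Differences are log2 fold changes, OIO over Control, so that positive values mean higher in OIO, and their standard error (SE) comes from the fit. All 9 beta cell markers looked for were counted, and together they made up 243500 to 266600 CPM in OIO and 188500 to 241500 CPM in Control libraries. Nearly all of this sum came from Ins1, Ins2 and Iapp, none of which passed. The only beta cell marker called, the glucose transporter gene Slc2a2, was lower in OIO (632 ± 86.1 CPM in OIO, 828 ± 58.6 CPM in Control, log2 fold change −0.39, adjusted p = 0.044, edgeR's quasi-likelihood test), and it did not pass in 5 of the 6 fits with a library left out (highest adjusted p 0.14). Of the other cell types looked for, the summed marker level also separated the groups for delta and PP cells (7487 to 8915 CPM in OIO, 9275 to 10160 CPM in Control, 6 of 6 markers counted). That lower sum came mainly from Ppy (3034 CPM on average in OIO, 4610 CPM in Control), which did not pass, while Sst overlapped between the groups. The only marker of this list called, Ghsr, was higher in OIO (log2 fold change 0.74, adjusted p = 0.011, edgeR's quasi-likelihood test) and passed in each fit that left out a library. The summed level separated the groups too for ductal markers (366 to 489.5 CPM in OIO, 312 to 322 CPM in Control, 7 of 7 counted). Most of the ductal sum came from Spp1 and Krt7, while Krt19, Sox9 and Cftr overlapped between groups and each stayed under 5 CPM. Adipocyte markers summed to 16.4 to 18.5 CPM in OIO and 12.2 to 14.9 CPM in Control (5 of 5 counted), nearly all of it Fabp4. Acinar, stromal, endothelial, leukocyte, alpha cell, erythrocyte, and stellate and Schwann cell sums overlapped between the groups. The part of these differences in the changes of Gpx1, Gpx2 and Gstm1 was not tested.

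The stretches of DNA before the RefSeq starts of the genes that changed are shown with that of Gclm. Among the 7 members with such a stretch at hand, Gclm had the only match to the antioxidant response element. That is the DNA motif that the stress-responsive factor NRF2 is known to bind. The motif searched was TGACNNNGC on both strands of the 250 bases before each RefSeq start, and matches are in capitals. The sequences are from RefSeq on GRCm38.p6, given 5′ to 3′ on the gene's strand, and lie at chr9:108338830-108339079 on the plus strand for Gpx1, chr3:108017974-108018223 on the minus strand for Gstm1 and chr3:122245307-122245556 on the plus strand for Gclm.
Gpx1: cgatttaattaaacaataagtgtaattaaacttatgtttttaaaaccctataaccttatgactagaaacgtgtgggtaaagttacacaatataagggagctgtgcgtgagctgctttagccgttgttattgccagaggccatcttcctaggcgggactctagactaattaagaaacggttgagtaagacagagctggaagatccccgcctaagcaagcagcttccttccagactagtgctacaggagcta
Gstm1: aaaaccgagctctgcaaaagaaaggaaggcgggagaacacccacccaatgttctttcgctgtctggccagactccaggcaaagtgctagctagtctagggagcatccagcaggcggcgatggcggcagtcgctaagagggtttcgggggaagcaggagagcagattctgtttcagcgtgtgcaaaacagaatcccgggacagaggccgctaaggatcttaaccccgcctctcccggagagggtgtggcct
Gclm: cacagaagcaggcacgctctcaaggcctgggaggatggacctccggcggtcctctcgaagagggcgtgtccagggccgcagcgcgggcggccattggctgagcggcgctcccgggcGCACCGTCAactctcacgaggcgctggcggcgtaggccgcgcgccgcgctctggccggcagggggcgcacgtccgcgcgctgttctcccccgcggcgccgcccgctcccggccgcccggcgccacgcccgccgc
The annotations differ for Gpx1, whose start in GENCODE M21, at position 108338903, falls inside the window shown, so most of that window lies within the gene as GENCODE draws it. The Gclm match is on the opposite strand to the gene and lies 134 bases before the start. Windows were at hand for 7 of the 10 members, so Gclc, Gsr and Gsta4 were not searched and may or may not hold the motif. Gpx4 had several windows. Gstm1 had a second, at chr3:108017819-108018068 on the minus strand, which is not shown and held no match. Of all 32851 such windows in RefSeq, 10.2% held a match, and of the 27025 genes they belong to, 11.5% had a match in any window. A match describes the letters of this window and not the binding of a factor.

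Gpx1 is a selenoprotein that reduces hydrogen peroxide and small organic hydroperoxides. Its level was 113, 97.8 and 106 CPM in OIO replicates 1, 2 and 3, against 66.9, 66.1 and 69.3 CPM in Control replicates 1, 2 and 3. All 3 OIO values exceeded all 3 Control values, and the gap between the groups exceeded the spread within either. The means were 105.5 ± 7.38 CPM in OIO and 67.4 ± 1.695 CPM in Control (SD, n = 3 each). The difference was 0.64 on the log2 scale (SE 0.06, adjusted p = 5.1e-04, edgeR's quasi-likelihood test), which placed Gpx1 23rd of 14903 genes by p. It passed in each fit that left out a library, with log2 fold changes between 0.61 and 0.70 and a highest adjusted p of 0.0035. The authors' deposited table lists Gpx1 at 0.64 on the log2 scale (adjusted p = 0.0019).

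Gpx4 encodes the peroxidase that reduces phospholipid hydroperoxides in membranes and holds back ferroptosis, a form of cell death by lipid peroxidation. Its level was 67.6, 67.1 and 71.6 CPM in OIO and 71.8, 71.6 and 75.8 CPM in Control libraries. The OIO libraries lay just below the Control libraries, with the highest OIO and the lowest Control value nearly touching. The difference of −0.09 on the log2 scale (SE 0.05, adjusted p = 0.38) did not pass edgeR's quasi-likelihood test, with a 95% interval from −0.21 to 0.03. Since Gpx1 and Gpx4 are both selenoproteins, their ratio within a library was also taken, per kilobase of transcript. It was 1.49, 1.30 and 1.32 in OIO and 0.833, 0.825 and 0.818 in Control libraries. The groups could not overlap in it, since all OIO libraries lay above Control for Gpx1 and below Control for Gpx4. The ratio is thus a restatement of those levels and not a further result. Of the 31-base words of the Gpx4 transcript, 73.6% also occur in the pseudogene Gpx4-ps2, so its count is less certain than that of Gpx1, whose transcript shares no such word with another gene's transcripts in GENCODE M21.

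**Figure D1:**
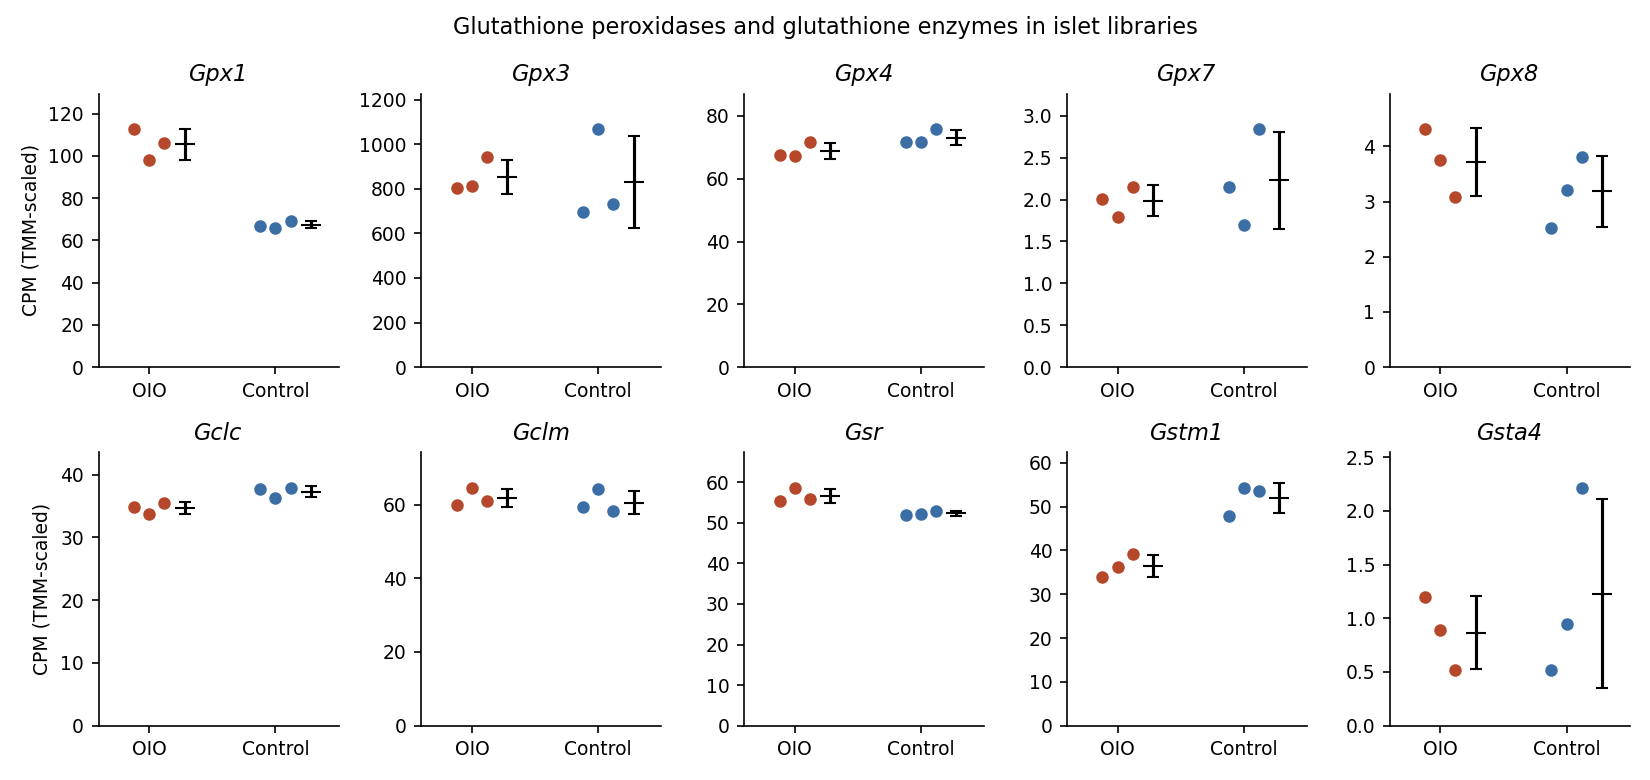
Level of each gene in CPM (vertical axes, each from 0) in the 3 OIO and the 3 Control libraries, in order of replicate, with mean and SD beside them. The OIO points for Gpx1 (97.8 to 113 CPM) lie above all Control points (66.1 to 69.3 CPM), and those for Gstm1 (34.0 to 39.2 CPM) lie below all Control points (47.9 to 54.3 CPM).

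Gpx3 encodes the secreted peroxidase found in plasma and was by far the most abundant of the 10 transcripts. It had 805, 810 and 941 CPM in OIO and 694, 1067 and 732 CPM in Control libraries. Control replicate 2 was the highest of all and the other Control libraries the lowest, so the groups overlapped. The means of 852 ± 77.1 CPM in OIO and 831 ± 205 CPM in Control (SD, n = 3 each) differed by 0.04 on the log2 scale (SE 0.18, adjusted p = 0.93, edgeR's quasi-likelihood test). The 95% interval reached from −0.40 to 0.47, so levels from 0.758 to 1.39 of the control level lie within it. Without Control replicate 2 the log2 fold change was 0.26 (adjusted p = 0.12), and it was below 0 in the fits that left out OIO replicate 3, Control replicate 1, Control replicate 3 or the TMM scaling.

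Alpha cell markers moved with Gpx3 from library to library. All 6 of the markers looked for were counted, and their sum, nearly all of it from the glucagon gene Gcg, was 54390, 52040 and 62220 CPM in OIO and 43870, 79860 and 49630 CPM in Control libraries. Both Gpx3 and these markers were highest in Control replicate 2, next in OIO replicate 3 and lowest in Control replicate 1. Both are levels within the same libraries, and the part of alpha cell RNA in the Gpx3 level was not tested. In bulk islet RNA, fewer cells of a type and less RNA per cell cannot be told apart.

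The peroxidases of the endoplasmic reticulum (ER), Gpx7 and Gpx8, use protein disulfide isomerases as partners in place of glutathione and so take part in the oxidative folding of secreted proteins. Gpx7 had 2.01, 1.79 and 2.16 CPM in OIO and 2.15, 1.70 and 2.84 CPM in Control libraries. Gpx8 had 4.31, 3.76 and 3.08 CPM in OIO and 2.53, 3.21 and 3.81 CPM in Control libraries. The groups overlapped for both genes, which rest on 42 to 114 counts per library for Gpx7 and 87 to 178 for Gpx8. The log2 fold change was −0.17 for Gpx7 (95% interval −0.70 to 0.36, adjusted p = 0.73) and 0.21 for Gpx8 (95% interval −0.24 to 0.67, adjusted p = 0.59), by edgeR's quasi-likelihood test. As ratios to the control level, these intervals run from 0.615 to 1.28 for Gpx7 and from 0.846 to 1.59 for Gpx8. Gpx8 overlaps Cdc20b on the opposite strand, and whether the libraries kept strand is not stated.

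Stromal markers were uneven between libraries. All 9 were counted, with sums of 428.5, 284.5 and 255 CPM in OIO and 328, 300 and 725 CPM in Control replicates 1, 2 and 3. Control replicate 3, which had the highest sum, also had the highest Gpx7 level. Without that library the log2 fold change of Gpx7 was 0.04 and that of Gpx8 was 0.36 (adjusted p = 0.94 and 0.36). The part of stromal RNA in these levels was not tested.

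**Figure D2:**
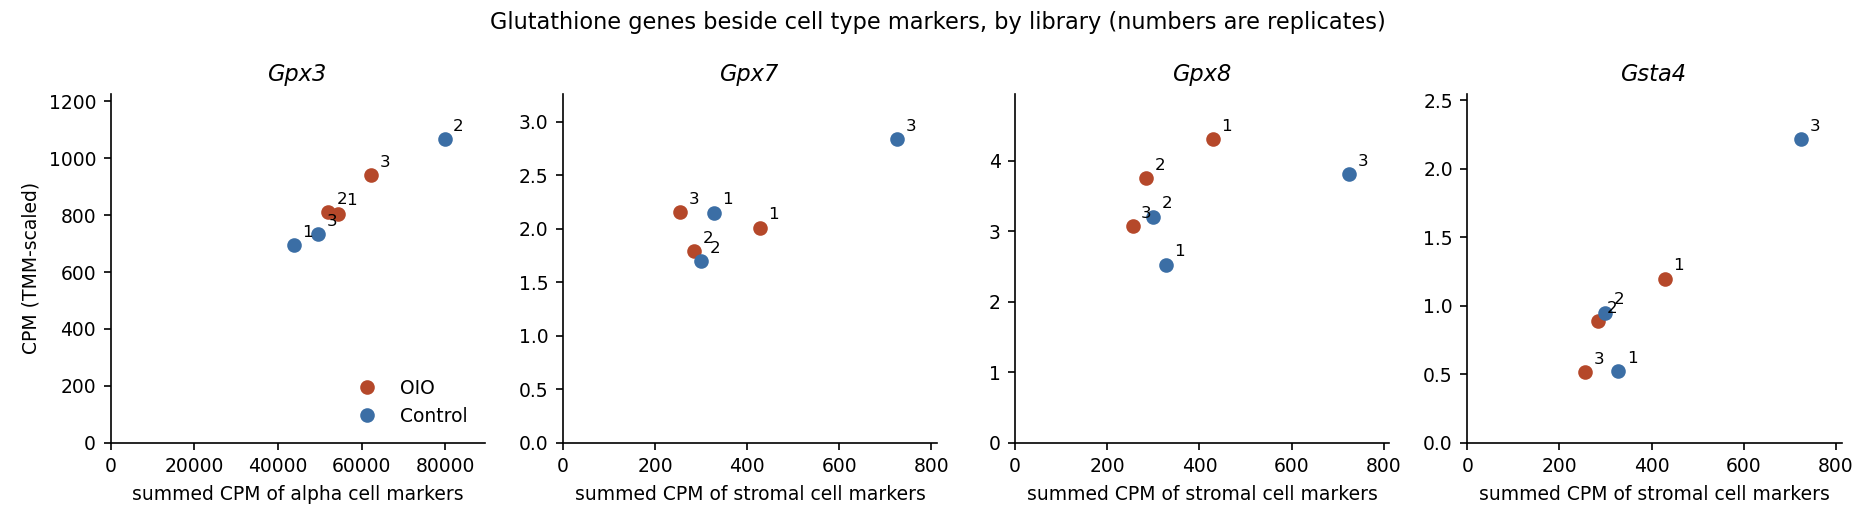
Level of Gpx3 against the summed CPM of 6 alpha cell markers, and of Gpx7, Gpx8 and Gsta4 against the summed CPM of 9 stromal markers, both axes from 0, with 1 point per library labelled by replicate. Gpx3 was highest, at 1067 CPM, in Control replicate 2, where the alpha markers summed to 79860 CPM, and Gpx7 and Gsta4 were highest in Control replicate 3, where the stromal markers summed to 725 CPM.

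The genes of glutathione synthesis and recycling moved little. Gclc, the catalytic subunit of glutamate-cysteine ligase, had 34.9, 33.6 and 35.5 CPM in OIO and 37.7, 36.3 and 37.9 CPM in Control libraries. All OIO libraries lay below all Control libraries, by a margin smaller than 1 CPM between the nearest. Gclm, the modifier subunit that raises the enzyme's activity, had 59.8, 64.6 and 61.1 CPM in OIO and 59.3, 64.1 and 58.3 CPM in Control libraries, and the groups overlapped. The span of Gclm overlaps an antisense transcript, Gm17494, and a pseudogene on its own strand, Gm6061. Whole gene spans were compared, introns included, so whether exons are shared was not tested. Reads from any stretch shared with Gm17494 cannot be told apart if strand was not kept. The log2 fold changes were −0.11 for Gclc (SE 0.06, adjusted p = 0.31) and 0.03 for Gclm (SE 0.06, adjusted p = 0.81), by edgeR's quasi-likelihood test. Their 95% intervals, −0.23 to 0.02 and −0.10 to 0.16, exclude a 1.5-fold change in either direction.

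Gsr, which regenerates reduced glutathione, had 55.3, 58.6 and 55.9 CPM in OIO and 51.9, 52.1 and 52.9 CPM in Control libraries. All 3 OIO values exceeded all 3 Control values, but the difference was small, at 0.12 on the log2 scale (SE 0.05, 95% interval −0.0023 to 0.23), and did not pass (adjusted p = 0.22, edgeR's quasi-likelihood test). Libraries of the groups did not overlap for 5 of the 10 members, Gpx1 and Gsr with OIO above and Gpx4, Gclc and Gstm1 with OIO below, where 14.1% of all genes tested had OIO above, 15.1% had OIO below and 29.3% did one or the other.

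**Figure D3:**
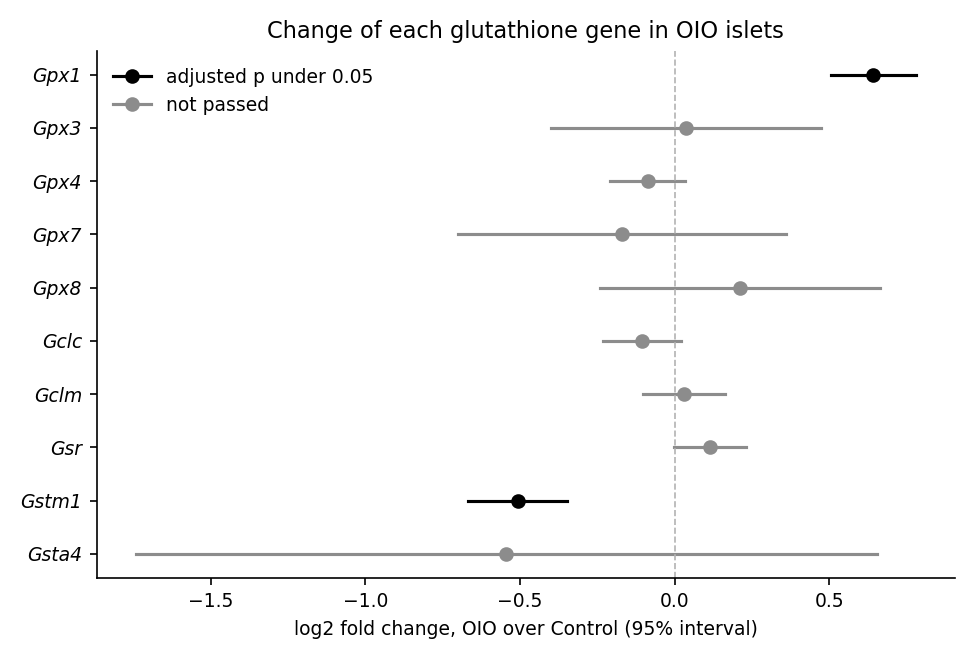
Log2 fold change of OIO over Control for each gene (points) with its 95% interval (lines), black where the adjusted p was under 0.05. The intervals of Gpx1 (0.51 to 0.78) and Gstm1 (−0.67 to −0.35) exclude 0, while those of Gclc, Gclm, Gsr and Gpx4 are narrow and lie close to 0.

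Gstm1, a cytosolic transferase of the mu class that conjugates electrophiles to glutathione, had 34.0, 36.3 and 39.2 CPM in OIO and 47.9, 54.3 and 53.6 CPM in Control libraries. The OIO libraries all lay below the Control libraries, and the gap between the groups exceeded the spread within either. The means were 36.5 ± 2.58 CPM in OIO and 52.0 ± 3.51 CPM in Control (SD, n = 3 each), a difference of −0.51 on the log2 scale (SE 0.07, adjusted p = 0.0037, edgeR's quasi-likelihood test). It passed in each fit that left out a library, between −0.56 and −0.45 with a highest adjusted p of 0.026. For Gstm1 the authors' deposited table has −0.51 on the log2 scale (adjusted p = 0.0092). Mu class genes are close copies of each other. Of the 31-base words of the Gstm1 transcript, 26.9% occur in the pseudogene Gstm2-ps1, 15.5% in Gstm3 and 3.10% in Gstm2, so how reads were divided among them is uncertain.

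Of 7 mu class genes in the table, 6 were tested, and 2 fell, where 2.84% of all genes tested fell. The second was Gstm2, with 16.3, 14.0 and 15.3 CPM in OIO and 20.02, 18.4 and 18.8 CPM in Control libraries (log2 fold change −0.33, SE 0.08, adjusted p = 0.037, edgeR's quasi-likelihood test). It did not pass in any fit that left out a library (adjusted p between 0.058 and 0.16). The other 4 were named after their values were seen. Gstm7 had 2.68, 2.91 and 2.93 CPM in OIO and 4.21, 4.19 and 4.24 CPM in Control libraries, without overlap, and its log2 fold change of −0.56 did not pass (adjusted p = 0.052). It passed without the TMM scaling and in limma voom (adjusted p = 0.030 and 0.047), and in none of the fits with a library left out. Gstm4, Gstm5 and Gstm6 overlapped between the groups, with log2 fold changes of 0.07, 0.10 and −0.58.

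Gsta4, an alpha class transferase known to detoxify the lipid peroxidation product hydroxynonenal, was among the least abundant members, with 18 to 89 counts per library. It had 1.20, 0.887 and 0.518 CPM in OIO and 0.523, 0.951 and 2.22 CPM in Control libraries. The groups overlapped, and the highest value again belonged to Control replicate 3. Its log2 fold change of −0.54 (95% interval −1.74 to 0.66, adjusted p = 0.59, edgeR's quasi-likelihood test) turned to 0.19 without that library.

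Levels of different genes can be set side by side only per length, here as CPM per kilobase of the longest principal transcript in GENCODE M21. On that scale Gpx3 led with 535 ± 48.3 in OIO and 521 ± 129 in Control islets (SD, n = 3 each). Gpx1 followed in OIO islets at 98.4 ± 6.88 and Gpx4 stood at 71.7 ± 2.55, whereas Control islets had Gpx1 at 62.9 ± 1.58 and Gpx4 at 76.2 ± 2.44. The libraries of Gpx1 and Gpx4 did not overlap in either group, and Gpx1 was above Gpx4 in OIO and below it in Control. With the median length of coding transcripts in place of the principal one, Gpx1 was above Gpx4 in both groups (134 against 71.7 in OIO, 85.7 against 76.2 in Control), so their order rests on the length used. Then came Gstm1 at 28.3 in OIO and 40.3 in Control, and Gsr at 21.2 in OIO and 19.6 in Control. Gclm and Gclc stood at 11.1 and 10.1 in OIO and at 10.8 and 10.9 in Control, where their libraries overlapped. Gclm too depends on the length used and reached 61.7 in OIO and 60.4 in Control with the median length. Gpx8, Gpx7 and Gsta4 closed the order at 3.57, 1.54 and 0.888 in OIO and 3.06, 1.73 and 1.26 in Control. Gpx7 and Gsta4 overlapped in Control libraries.

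Beyond the 10 members, Gpx2, Gpx5 and Gpx6 complete the peroxidase family. Gpx2 had 72.5, 63.9 and 52.0 CPM in OIO and 26.5, 20.9 and 23.6 CPM in Control libraries. The lowest OIO value was well above the highest Control value. The log2 fold change of 1.41 (SE 0.13, adjusted p = 0.0016, edgeR's quasi-likelihood test) was larger than that of Gpx1, and it passed in each fit that left out a library. Per kilobase of transcript, Gpx2 stood at 58.9 in OIO and 22.2 in Control islets. By these means it was below Gpx4 and above Gstm1 in OIO, and between Gstm1 and Gsr in Control. Gpx2 and Gsr overlapped in Control libraries, and for Gpx2 only the principal transcript length was used. Gpx5 had no count in any library, and Gpx6 had none in OIO and 5 in Control libraries, all in replicate 2. So 2 of 6 tested peroxidases rose, none fell and 4 did not pass, where 4.54% of all genes tested rose and 2.84% fell.

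Of 147 tested genes in 11 lists around the glutathione system, each gene counted once, 16 rose and 3 fell, while 128 missed the threshold. Their median difference was 0.06 on the log2 scale, beside −0.01 over all genes tested. Of all genes tested, 4.54% rose and 2.84% fell, and the counts of each list below are to be read against these shares. The lists were chosen with earlier results of these data known. When only library size was used for scaling, 12 of the list genes rose and 8 fell. In the fits that left out a library, 9 to 13 rose and 0 to 2 fell, and 8 of the 19 called genes, all of them higher in OIO, passed in every such fit. These were Gpx2, Aldh1l2, Selenom, Dio1, P4hb, Pdia3, Pdia6 and Vkorc1.

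None of 24 genes of glutathione synthesis, export and turnover passed, by edgeR's quasi-likelihood test, DESeq2 or limma voom. At an unadjusted p under 0.05, 4 were higher and 1 lower. The share of all genes under that threshold in each direction was not taken, so nothing is read from these counts. As a guide, Gsr, at an unadjusted p of 0.054 in edgeR's quasi-likelihood test, ranked 3609th of 14903 genes by p. Gss, glutathione synthetase, which completes the molecule, averaged 14.9 ± 0.79 CPM in OIO and 14.8 ± 1.27 CPM in Control (log2 fold change 0.01, SE 0.09). The member of lowest p was Cth, an enzyme that makes cysteine from cystathionine, at 0.442 ± 0.019 CPM in OIO and 1.01 ± 0.21 CPM in Control (log2 fold change −1.17, SE 0.32, adjusted p = 0.053), and it passed where TMM was left out (adjusted p = 0.036). Of 19 other glutathione S-transferases tested, Gstm2 fell and 18 did not pass.

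Among regulators of the antioxidant response, Nfe2l2 and Keap1 did not pass and Bach1 fell. Nfe2l2, the gene of NRF2, had 56.2, 47.9 and 49.8 CPM in OIO and 50.2, 53.7 and 55.0 CPM in Control libraries (log2 fold change −0.05, SE 0.07, adjusted p = 0.73, edgeR's quasi-likelihood test). Keap1, the adaptor that targets NRF2 for degradation, was at −0.03 (SE 0.06, adjusted p = 0.79). Nfe2l2 and Keap1 overlapped between the groups. Of 28 regulators and targets tested, Bach1, a repressor at the same DNA motif, fell by 0.28 (SE 0.07, adjusted p = 0.031), none rose and 27 missed the threshold (median 0.07). The call of Bach1 was lost in the fits that left out OIO replicate 1, OIO replicate 2, Control replicate 1 or Control replicate 2 (adjusted p = 0.11, 0.16, 0.071 and 0.097). At an unadjusted p under 0.05, 7 of these genes were higher and 1 lower, and DESeq2 and limma voom each called 1. The unadjusted counts again have no share of all genes beside them, so no trend is read from them.

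Parallel systems of peroxide and superoxide removal held few calls. Of 18 thioredoxins, peroxiredoxins and glutaredoxins, Txn1, cytosolic thioredoxin, rose by 0.32 (SE 0.08, adjusted p = 0.0497), Txnrd3, a thioredoxin reductase, fell by 0.54 (SE 0.14, adjusted p = 0.041) and 16 did not pass. Txn1 passed in 1 of the 6 fits with a library left out and Txnrd3 in none (highest adjusted p 0.14 and 0.13). None of 5 superoxide dismutase and catalase genes passed in edgeR's quasi-likelihood test, DESeq2 or limma voom, nor at an unadjusted p under 0.05. Sod1, cytosolic superoxide dismutase, had the lowest p of them, with 174.5 ± 1.52 CPM in OIO and 158 ± 14.1 CPM in Control (log2 fold change 0.14, SE 0.07, adjusted p = 0.23).

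Glutathione reductase draws on NADPH. Of 19 genes of NADPH supply, 3 rose and 16 missed the threshold (median 0.12). Aldh1l2, a mitochondrial enzyme of folate metabolism, rose by 0.51 (SE 0.08, adjusted p = 0.0051), Pgls, of the pentose phosphate pathway, by 0.29 (SE 0.07, adjusted p = 0.037) and Idh2, the mitochondrial isocitrate dehydrogenase, by 0.26 (SE 0.07, adjusted p = 0.040), by edgeR's quasi-likelihood test. Pgls passed in 1 of the 6 fits with a library left out, without Control replicate 1, and Idh2 in none (highest adjusted p 0.11 and 0.15). Nnt, the mitochondrial transhydrogenase in which the C57BL/6J strain is known to carry a deletion, was still counted, at 32.3 ± 0.90 CPM in OIO and 28.8 ± 1.47 CPM in Control, and did not pass (log2 fold change 0.16, SE 0.06, adjusted p = 0.17).

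Gpx1, Gpx3 and Gpx4 need selenocysteine. Of 17 other selenoproteins tested, 3 rose, 1 fell and 13 missed the threshold (median 0.07). This list held no glutathione peroxidase, so the rise of Gpx2 is not in its count. Selenom, an ER selenoprotein, rose by 0.44 (SE 0.05, adjusted p = 0.0014), Dio1, a deiodinase of thyroid hormone, by 0.44 (SE 0.07, adjusted p = 0.0059) and Selenof, also of the ER, by 0.27 (SE 0.06, adjusted p = 0.023), while Txnrd3 fell, as given above. Of 11 genes of selenocysteine incorporation, Scly, which frees selenium from selenocysteine, rose by 0.29 (SE 0.06, adjusted p = 0.023) and 10 missed the threshold (median −0.09). Selenof and Scly each failed to pass in 4 of the 6 fits with a library left out (highest adjusted p 0.082 and 0.087).

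The list of ER oxidative folding genes held the most calls. It includes protein disulfide isomerases, the partners of Gpx7 and Gpx8, but also other ER genes. Of 13 genes, 6 rose, none fell and 7 missed the threshold (median 0.21), where 4.54% of all genes tested rose. P4hb, the main protein disulfide isomerase, had 1464, 1472 and 1472 CPM in OIO and 1069, 981 and 1009 CPM in Control libraries, a rise of 0.53 (SE 0.06, adjusted p = 7.6e-04, edgeR's quasi-likelihood test). Pdia6 rose by 0.84 (SE 0.06, adjusted p = 3.8e-05), Pdia3 by 0.45 (SE 0.05, adjusted p = 0.0013) and Vkorc1, an ER reductase of vitamin K, by 0.42 (SE 0.06, adjusted p = 0.0025). Qsox1 and Pdia4 rose by 0.38 and 0.25 (adjusted p = 0.020 and 0.037). Qsox1 failed to pass in 4 and Pdia4 in 5 of the 6 fits with a library left out (highest adjusted p 0.072 and 0.12). That these genes passed and Gpx7 and Gpx8 did not was not tested as a difference, and the intervals of the peroxidases are wide enough to hold changes of the size of P4hb for Gpx8. Of 12 genes of lipid peroxidation and ferroptosis, Lpcat3, which builds polyunsaturated fatty acids into phospholipids, rose by 0.30 (SE 0.06, adjusted p = 0.022) and 11 did not pass. It failed to pass in 4 of the 6 fits with a library left out (highest adjusted p 0.072).

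**Figure D4:**
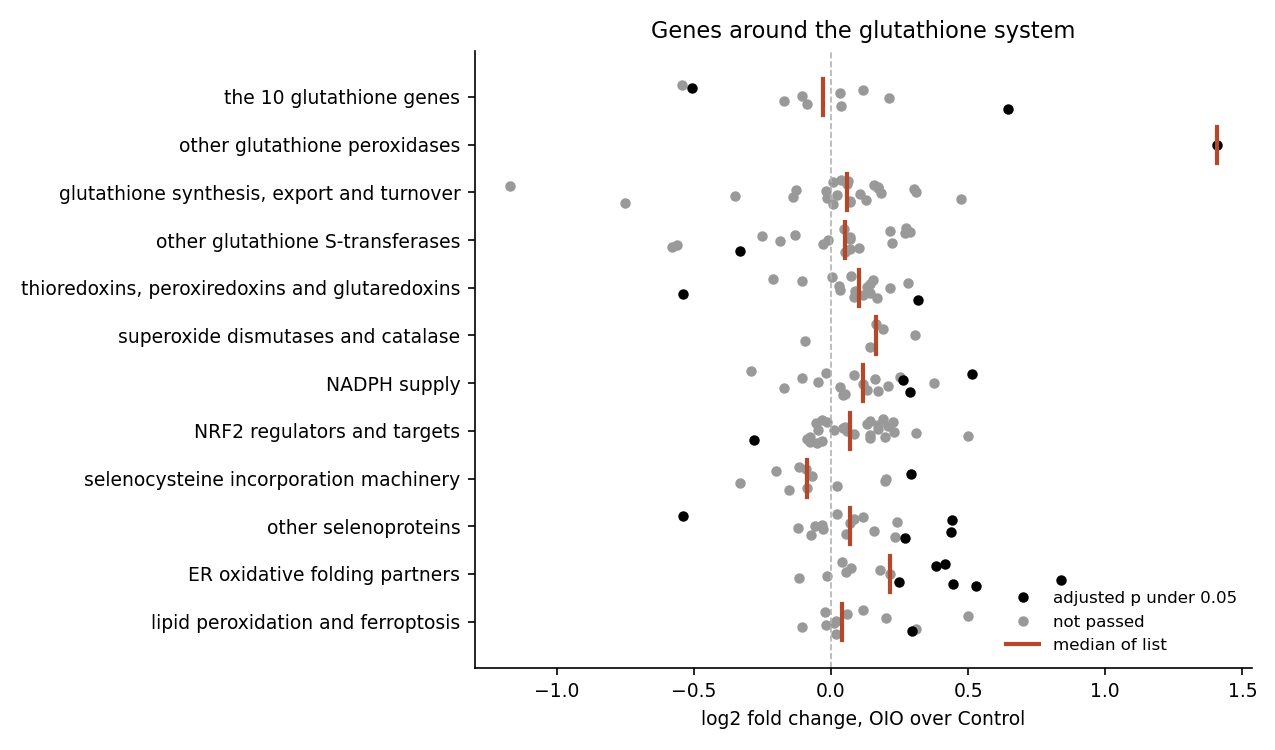
Log2 fold change of OIO over Control for each tested gene (points) of the 10 glutathione genes and of 11 lists around them, black where the adjusted p was under 0.05, with the median of each list as a bar. A gene in several lists is drawn in each. Gpx2 stands farthest to the right at 1.41, and the ER oxidative folding list holds 6 black points, all above 0.

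The genes whose levels followed Gpx1 most closely over the 6 libraries, by Pearson's r of log2 CPM among 11033 genes, were Cr1l (r = 0.996), Apobec1 (r = 0.995) and Plod3 (r = 0.994). Those closest to Gstm1 were Cyp51 (r = 0.999), Riok2 (r = 0.998) and Ddx3y (r = 0.997). With 6 libraries in 2 groups, such values are a description of shared order and are in large part set by the difference between the groups. Apobec1 and Plod3 rose by 0.49 and 0.32 (adjusted p = 0.0019 and 0.010, edgeR's quasi-likelihood test), and Cr1l, at 0.15, did not pass. Cyp51, Riok2 and Ddx3y fell by 0.20, 0.26 and 0.32 (adjusted p = 0.047, 0.045 and 0.012). Of these, Cyp51 and Riok2 did not pass with any library left out, nor Ddx3y without OIO replicate 1 or 2 (highest adjusted p 0.19, 0.16 and 0.065).

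In GRCm38, only chromosomes 3 and 9 hold more than 1 of the genes. Gpx1 lies at chr9:108338903-108340343, Gclc at chr9:77754535-77794485 and Gsta4 at chr9:78182774-78209349. Gstm1 lies at chr3:108012255-108017973 and Gclm at chr3:122245557-122270732. Gpx3 lies at chr11:54902453-54910377, Gpx4 at chr10:80047166-80056439, Gpx7 at chr4:108400390-108406961, Gpx8 at chr13:113042753-113046410 and Gsr at chr8:33652523-33698163. All 10 are annotated as protein-coding, and the counts are per gene, so they do not separate exons or transcripts.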

How the data were processed

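Polyadenylated islet RNA of 3 OIO and 3 Control libraries was extracted with Trizol and made into libraries with an Illumina TruSeq kit, per the labels' protocols. The submitters' processing notes name bcl2fastq, kallisto, limma, GRCm38 and mm10, with no versions or order. The authors deposited whole-number counts for 23420 gene symbols, with no normalization. The sources used here do not say how reads were turned into these counts. Their deposited comparison table holds, per the file headers, a p-value with its adjusted form, 2 log2 columns (fold change and average expression) and 2 scores (a moderated statistic and log odds). Its model and direction are not stated, and 97.7% of its fold changes had the sign of OIO over Control found here. Columns were matched to labels by library number.

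Counts were fitted with edgeR 4.0.16 in R 4.3.3 (filterByExpr, TMM, robust quasi-likelihood, group as the only term, 4 residual degrees of freedom), and p-values were adjusted over 14903 genes. SEs were derived from the log2 fold change and its F statistic, and 95% intervals from the SE and the total degrees of freedom. Alternatives were DESeq2 1.42.0, limma 3.58.1 voom, other scalings and filters, and each library left out in turn. Permuting 3 against 3 libraries exactly reaches p = 0.1 at best, so this was not used. On simulated counts with these depths and dispersions, for 14799 genes, calls were made for 32% of 50 genes set to change by 1.25-fold, for 80% where the change was 1.5-fold and for 96% where it was 2-fold. Of 14599 genes left unchanged, 8 were called. Genes under 4 CPM, such as Gpx7, Gpx8 and Gsta4, were not simulated as changed. Replicates differed by more than counting noise (chi-square per degree of freedom 13.1 to 52.2).

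The members and lists were chosen with earlier results of these data known. All members are named with every library. In the lists, the genes that passed and the lowest p of a list without any were named, with Nfe2l2, Keap1 and Nnt, and for each member that passed the 3 genes of highest Pearson correlation over the 6 libraries. Gss, Gstm4, Gstm5, Gstm6 and Gstm7 were named after their values were seen. Of 160 list genes, 12 were matched through synonyms.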

Additional observations from a re-analysis of the deposited data

How the results depend on the processing

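The calls of Gpx1 and Gstm1 kept direction and side of the threshold in all 14 alternatives. Over the 10 members, 132 of 139 values did so and 7 changed sign, none of which had passed. With library size alone, Gpx3 was at −0.0331, Gclm at −0.0341 and Gss at −0.0614, 1113 genes were lower (423 with TMM) and 8 list genes were lower (3 with TMM). With a library left out, the log2 fold change of Gpx3 was between −0.0779 and 0.257, of Gpx7 between −0.333 and 0.045, of Gsta4 between −0.898 and 0.187, of Gss between −0.0517 and 0.0711, of Nfe2l2 between −0.105 and 0.0061, and of Keap1 between −0.064 and 0.0045. The cause was not tested. The genes called were 336 to 560 higher and 112 to 303 lower with a library left out, against 676 and 423 with all 6, and the list genes called were 9 to 13 higher and 0 to 2 lower, against 16 and 3. These fits have fewer samples. Gsta4 could not be fitted with a filter of 1 CPM in 3 libraries. No paired analysis was possible because the labels give the libraries no shared replicate numbers. Gpx7, Gpx8 and Gsta4 had wide intervals and at most 114, 178 and 89 counts per library, but Gpx3, with at least 16809, had one about as wide as Gpx8, and the part of depth in these widths was not tested.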

Other observations

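A pair of transferases below the filter on low counts, named after their values were seen, were highest in the same Control library as Gsta4 and Gpx7. Gstm3, a mu class gene, had 0.192, 0.127 and 0.201 CPM in OIO and 0.145, 0.129 and 3.01 CPM in Control replicates 1, 2 and 3. Gsta1, an alpha class gene, had 0.192, 0.0211 and 0 CPM in OIO and 0, 0 and 1.32 CPM in Control libraries. Control replicate 3 was also highest for the summed stromal markers, at 725 CPM, and the part of stromal RNA in these levels was not tested.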
